A study of Homo sapiens and Mus musculus with 13 samples.

Results

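The hybrid maps of the human cell lines were read at 8 genes that are textbook examples of abundant transcripts. They are the actin genes ACTB and ACTG1, the translation elongation factor genes EEF1A1 and EEF2, the chaperone genes HSPA8 and HSP90AB1, and the nucleolar protein genes NPM1 and NCL. Members were chosen by position: each gene on hg19 together with 5 kb on either side, and any peak touching that window by at least 1 bp. Of 325035 peaks in the 6 human lists, 126 met this rule. They were 27 of 51445 K562 peaks, 26 of 88310 NT2 DRIPc peaks, 2 of 8998 NT2 RNase H peaks, 23 of 59825 NT2 RNase A peaks, 20 of 49331 NT2 digest B peaks and 28 of 67126 NT2 digest A peaks.

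K562 is a human erythromyeloblastoid leukaemia line and NT2 a human testicular embryonal carcinoma line with pluripotent properties, both established cultures. In DRIP-seq, DNA cut with restriction enzymes is precipitated with an antibody against RNA:DNA hybrids and the DNA is sequenced, so its peaks carry no strand. DRIPc-seq reads the RNA of the hybrid instead, which shows the strand it came from. The K562 list, the NT2 DRIPc list, the NT2 RNase H and RNase A lists and the NT2 digest A list were made with HindIII, EcoRI, BsrGI, XbaI and SspI (digest A), and the NT2 digest B list with BamHI, NcoI, ApaL1, NheI and PvuII. Each list stands for 1 sample, apart from NT2 DRIPc, where 1 list stands for 2 samples. No comparison has a replicate check and none was tested. The lists hold positions only, so the depth of each library is unknown, and a peak that is missing was not called there. Cell line, treatment and digest each changed together with the library and cannot be told apart from it. RNA levels were not analysed here, so the label "highly expressed" was not checked in these cells.

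An R-loop forms when nascent RNA pairs with its template DNA and displaces the other DNA strand. Such hybrids are known to be frequent at starts with an unmethylated CpG island, above all where the displaced strand is rich in G, and past the polyadenylation site of active genes. RNase H cuts the RNA of a hybrid and serves as the negative control, while RNase A removes free RNA.

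The sequences just before the start are shown for 4 genes, since they have the highest and the lowest GC skew of the 7 genes with a sequence. Capitals mark every run of at least 4 G, the letters GGGG on the strand of the gene. Sequences are from RefSeq on GRCh38.p14, whose positions cannot be set beside the hg19 positions of the peaks. They cover the 250 bases before the RefSeq start and were found for 7 of the 8 genes. For HSP90AB1 and NPM1, which have several entries, the entry was taken whose distance to the gene's end came closest to the length used here. HSPA8, GRCh38.p14 chr11:123062137-123062386, minus strand: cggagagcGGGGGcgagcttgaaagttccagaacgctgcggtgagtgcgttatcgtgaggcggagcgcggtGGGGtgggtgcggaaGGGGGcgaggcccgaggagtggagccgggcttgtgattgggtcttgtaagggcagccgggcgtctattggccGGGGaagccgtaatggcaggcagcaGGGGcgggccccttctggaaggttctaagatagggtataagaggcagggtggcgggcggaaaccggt
NPM1, GRCh38.p14 chr5:171387599-171387848, plus strand: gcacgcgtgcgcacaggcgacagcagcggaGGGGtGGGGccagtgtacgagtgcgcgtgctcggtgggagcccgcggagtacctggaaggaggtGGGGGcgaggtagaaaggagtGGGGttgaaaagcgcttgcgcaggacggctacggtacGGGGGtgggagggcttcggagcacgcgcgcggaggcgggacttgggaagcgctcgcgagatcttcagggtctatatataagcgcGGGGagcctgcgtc
EEF2, GRCh38.p14 chr19:3985464-3985713, minus strand: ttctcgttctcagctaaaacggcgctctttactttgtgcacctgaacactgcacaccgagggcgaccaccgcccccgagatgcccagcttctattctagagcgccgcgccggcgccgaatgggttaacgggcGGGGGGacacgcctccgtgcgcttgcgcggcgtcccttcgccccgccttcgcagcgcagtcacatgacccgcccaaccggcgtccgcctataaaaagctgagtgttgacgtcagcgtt
NCL, GRCh38.p14 chr2:231464485-231464734, minus strand: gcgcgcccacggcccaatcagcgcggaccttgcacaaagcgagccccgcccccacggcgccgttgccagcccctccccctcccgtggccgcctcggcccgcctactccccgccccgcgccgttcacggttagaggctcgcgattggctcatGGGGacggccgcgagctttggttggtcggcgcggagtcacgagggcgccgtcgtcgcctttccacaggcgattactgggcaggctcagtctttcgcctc

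HSPA8 had 117 G and 47 C in these 250 bases, a GC skew, (G - C)/(G + C), of 0.43, which is higher than in 98.9% of 35116 RefSeq promoters. NPM1 had 115 G and 54 C, a skew of 0.36, higher than in 97.7%. NCL had 77 G and 103 C, a skew of -0.14, and EEF2 had 69 G and 90 C, a skew of -0.13. Between these lay ACTG1 and EEF1A1 at 0.16 each and HSP90AB1 at 0.15, so 5 of the 7 genes leaned to G on their own strand. The median skew over all promoters was 0.0, so a lean to G is by itself common. GC content ran from 56.4% in HSP90AB1 to 78.8% in ACTG1, against a median of 58.0% over all promoters. The letters GGGG occurred on the strand of the gene in 7 of 7, against 70.3% of all promoters. CCCC occurred on that strand in 6 of 7, against 70.0%. TATAA, searched on both strands, was found in 5 of 7 against 18.9%, and CCAAT on both strands in 3 of 7 against 32.0%.

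All 8 genes carried peaks in both cell lines. The RNase H list is from NT2, so the K562 peaks have no such control here. A peak lay within 5 kb of 8 of 8 genes in the K562, NT2 DRIPc, NT2 RNase A, NT2 digest B and NT2 digest A lists, and of 2 of 8 in the RNase H list. In tiles of 15 kb across all chromosomes, a peak was present in 13.9% for K562, 24.9% for DRIPc, 3.75% for RNase H, 18.2% for RNase A, 18.7% for digest B and 17.2% for digest A. The gene windows measure 12896 to 33181 bp, so most are near the size of a tile. The tiles also take in stretches without genes, and shares at other genes were not computed. K562 peaks covered 61.6% of the bases in the 8 windows, DRIPc 49.4%, RNase H 3.65%, RNase A 55.8%, digest B 64.9% and digest A 58.6%. Over all chromosomes cover was 3.76% for K562, 7.23% for DRIPc, 0.497% for RNase H, 4.84% for RNase A, 6.29% for digest B and 4.39% for digest A. The peaks near the genes were also long, with a median of 2067 bp in digest A against 1206 bp for that list, and of 2578 bp in K562 against 1360 bp. Longer peaks touch a window more readily and were counted at full length, which was not adjusted for.

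**Figure D1:**
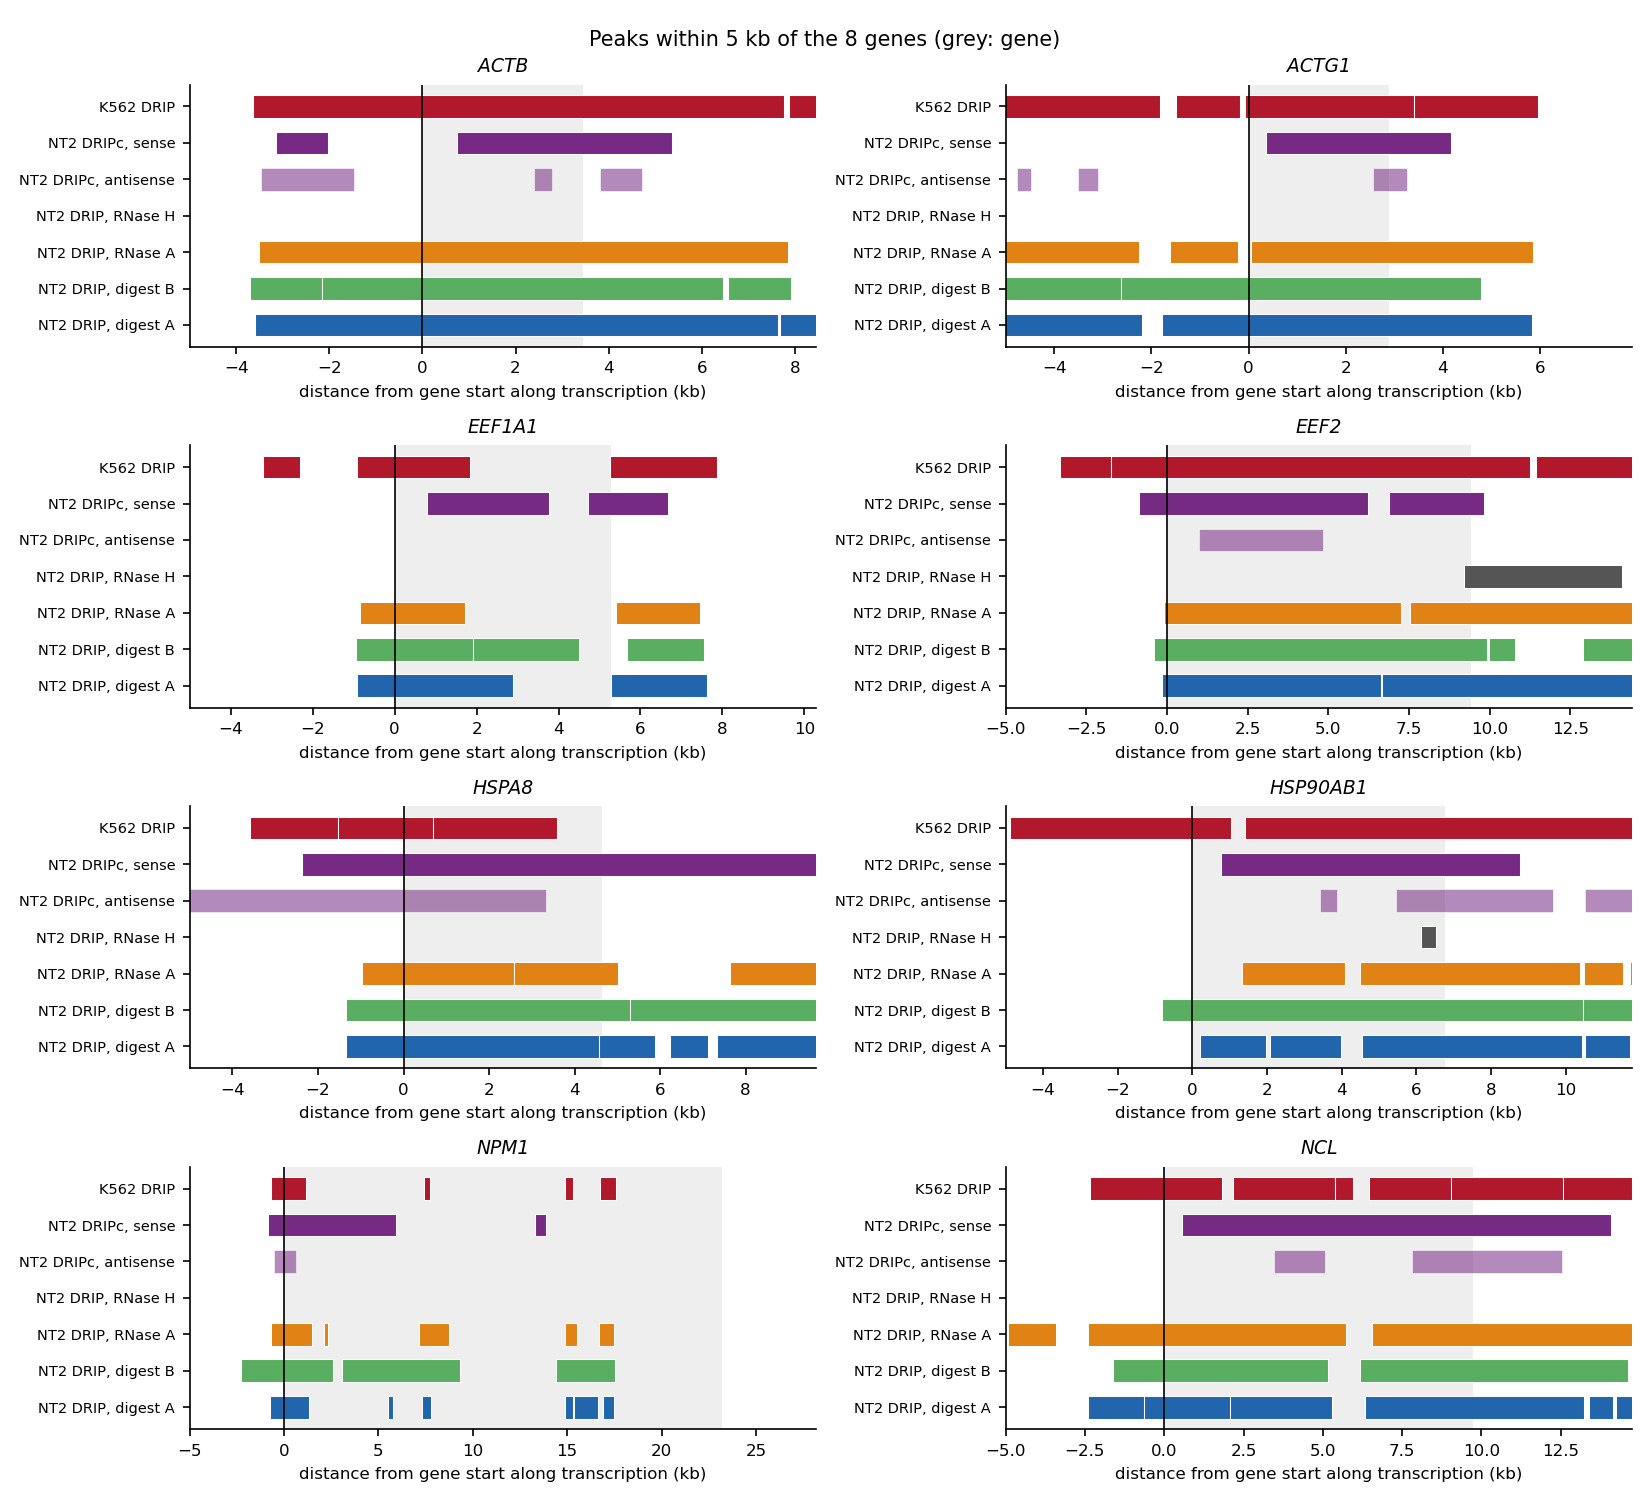
Peaks within 5 kb of each gene, drawn by distance in kb from the gene start along transcription, with the gene in grey and a row for each list (DRIPc split by strand). Peaks fill most of ACTB, ACTG1, EEF2 and NCL in every list other than RNase H, leave gaps in EEF1A1, and are short and scattered in NPM1.

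ACTB (chr7:5566779-5570232, minus strand) encodes beta-actin of the cytoskeleton and lay wholly inside a single DRIP peak. That peak measured 11404 bp in K562 (chr7:5562471-5573874), 11374 bp after RNase A, 8605 bp in digest B and 11238 bp in digest A (chr7:5562588-5573825). Its upstream edge lay 3642 bp before the start in K562, 3519 bp in RNase A and 3593 bp in digest A, and its downstream edge lay past the gene end by 4308 bp in K562, 4401 bp in RNase A and 4191 bp in digest A. These 3 lists, all made with the same enzymes, thus had nearly the same edges, and K562 shared 98.4% of the bases in either list with digest A. Digest B covered nearly the same stretch in several peaks. Counted from the start, they ran from -3707 to -2151 bp, from -2149 to 6455 bp and from 6562 to 7915 bp. The last of them ended 4462 bp past the gene end, so the outer edges in digest B were also close to those in the other lists. The DRIPc peak on the strand of the gene was shorter, from 746 bp after the start to 1903 bp past the end. Upstream there was a further pair of DRIPc peaks on opposite strands, a sense peak from -3157 to -2036 bp and an antisense peak from -3466 to -1471 bp.

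ACTG1 (chr17:79476997-79479892, minus strand), the gene of cytoplasmic gamma-actin, looked much the same but with a break near its start. In digest A a peak ran from -1779 bp, counted from the start, to 2938 bp past the end. K562 and RNase A were interrupted just upstream: the K562 peaks ended 170 bp before the start and resumed 69 bp before it, and the RNase A peaks ended 224 bp before it and resumed 57 bp after it. Sense DRIPc signal began 352 bp after the start and ended 1263 bp past the end. All 4 DRIP lists other than RNase H held a further long peak upstream, which in digest A reached from -11982 to -2196 bp. The next gene on that side is FSCN2 in the GRCh38.p14 gene order.

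EEF1A1 (chr6:74225473-74230755, minus strand) encodes the factor that brings aminoacyl-tRNA to the ribosome. Its peaks fell mainly into a start block and an end block, but the gap between them differed from list to list. The start peak ran from -920 to 1848 bp in K562, from -837 to 1722 bp after RNase A and from -916 to 2895 bp in digest A. In a gene of 5283 bp, the end peak began 5252 bp after the start in K562, 5401 bp in RNase A and 5280 bp in digest A. It ran past the end by 2577 bp in K562, 2181 bp in RNase A and 2334 bp in digest A. The end peak therefore lay almost wholly in the downstream flank. Digest B filled more of the gene, 85.1% of its bases against 54.9% in digest A, and K562 and RNase A covered 35.6% and 32.6%. Digest B peaks ran from -953 to 1912 bp and from 1914 to 4495 bp, and the next began at 5674 bp. Sense DRIPc peaks came as a pair of blocks too, from 782 to 3773 bp and from 4717 bp to 1397 bp past the end. Both reached into the stretch that K562 and RNase A left uncovered. No antisense DRIPc peak lay in this window, unlike at the other 7 genes.

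EEF2 (chr19:3976054-3985461, minus strand), which encodes the factor that moves the ribosome along the mRNA, was covered nearly end to end. Its bases were covered to 100% in K562, 96.9% after RNase A, 100% in digest B and 99.7% in digest A. Sense DRIPc peaks covered 93.2%, from 854 bp before the start to 422 bp past the end. The longest peaks near any of the genes ran from here towards the neighbouring gene DAPK3. In RNase A such a peak of 29504 bp began inside EEF2, 7526 bp after the start, and in digest A one of 28294 bp began at 6670 bp. In K562 a peak of 23448 bp began past the gene, at 11422 bp. In digest B the peak over the gene end measured 10325 bp and ended 507 bp past it, with peaks of 828 and 3736 bp farther on. Chromosome 19 was, of the chromosomes that hold these genes, the most densely covered in the DRIP lists, at 22.3% in K562, 23.4% in RNase A, 21.8% in digest B and 20.8% in digest A.

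HSPA8 (chr11:122928200-122932844, minus strand), the gene of the constitutive HSC70 chaperone and host of several SNORD14 snoRNAs, differed most between K562 and digest A. K562 peaks stopped at -1047 bp, counted from the gene end, and none lay in the 5 kb beyond. In RNase A, digest B and digest A, the end zone (1 kb on either side of the last base) was covered to 68.1%, 100% and 100%, and the flank beyond it to 50.5%, 100% and 85.9%. Upstream the order was the opposite, since K562 peaks began at -3596 bp from the start, against -961 bp in RNase A, -1356 bp in digest B and -1340 bp in digest A. K562 and digest A shared 39.0% of their bases here, the lowest value of the 8 genes. Both DRIPc strands were long at HSPA8. The sense peak of 12651 bp ran from 2372 bp before the start to 5634 bp past the end, and the antisense peak of 12329 bp ran from -8997 to 3331 bp. LOC124902775, a long noncoding RNA on the plus strand, is the upstream neighbour in the GRCh38.p14 gene order.

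HSP90AB1 (chr6:44214849-44221620, plus strand) encodes the constitutive HSP90 beta chaperone, and its start was where the lists parted. K562 covered the start with a peak from -4875 to 1026 bp, and digest B with one from -808 bp. Digest A peaks began 214 bp after the start and RNase A peaks 1327 bp after it, the only gene with no RNase A peak in its start zone (1 kb on either side of the first base). The end was alike in all: 100% of the end zone was covered in K562, RNase A, digest B and digest A. Sense DRIPc signal ran from 766 bp after the start to 2002 bp past the end. Antisense peaks ran from 3422 to 3861 bp in mid-gene, from 5462 to 9668 bp across the gene end and from 10526 to 12363 bp beyond it. SLC35B2, on that strand, is the next gene downstream in the GRCh38.p14 gene order.

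NPM1 (chr5:170814708-170837888, plus strand), the gene of nucleophosmin, was the longest at 23181 bp and the least covered. The start peak was compact and alike, from -714 to 1177 bp in K562, from -670 to 1472 bp after RNase A and from -743 to 1312 bp in digest A. Digest B gave a wider one, from -2286 to 2567 bp. Farther in, some short peaks had counterparts in other lists and some did not. One near 15 kb ran from 14876 to 15320 bp in K562, from 14885 to 15542 bp after RNase A and from 14875 to 15322 bp in digest A, and digest B had a peak from 14408 to 17549 bp over it. The digest A peak from 5498 to 5788 bp had no counterpart in K562 or RNase A, and the RNase A peak from 2091 to 2320 bp none in K562 or digest A. No list held a peak in the end zone or the flank past it. Cover of the gene was 11.8% in K562, 28.1% in DRIPc, 20.3% in RNase A, 51.6% in digest B and 19.0% in digest A.

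NCL (chr2:232319459-232329205, minus strand), the gene of nucleolin and host of SNORA75, SNORD20 and SNORD82, was covered to between 89.1% (digest A) and 94.3% (DRIPc) in the 5 lists other than RNase H. The DRIP peaks left a shared break in mid-gene, between 5944 and 6456 bp in K562, 5733 and 6546 bp in RNase A, 5155 and 6173 bp in digest B, and 5273 and 6331 bp in digest A. The sense DRIPc peak was unbroken there. At 13532 bp it was the longest DRIPc peak near the genes, from 558 bp after the start to 4343 bp past the end. It was longer than 98.9% of all DRIPc peaks.

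**Figure D2:**
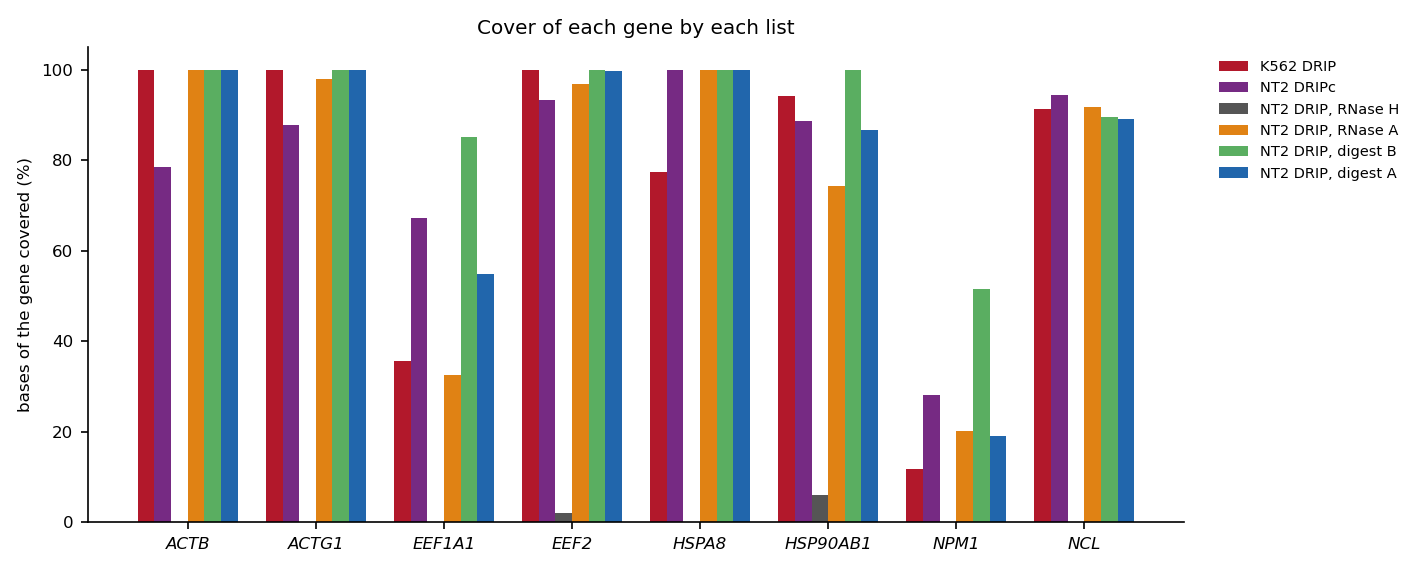
Percentage of the bases of each gene, flanks left out, that lie under a peak, with a bar for each list. NPM1 is the lowest in K562, DRIPc, RNase A, digest B and digest A, and RNase H bars are visible for EEF2 (2.15%) and HSP90AB1 (6.02%).

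Most genes had a DRIP peak at start, body and end, but the share of bases covered differed between these zones. The start zone held a peak at 8 of 8 genes in K562 and DRIPc, 0 of 8 in RNase H, 7 of 8 in RNase A and 8 of 8 in digest B and digest A. In tiles of 2 kb, the size of such a zone, a peak was present in 6.12% for K562, 11.2% for DRIPc, 1.01% for RNase H, 7.81% for RNase A, 8.82% for digest B and 7.44% for digest A. These tiles too run over whole chromosomes, so they are not a background of other gene starts or ends. With zones of 0.5 kb the DRIPc count was 4. The body held one at 8 of 8 genes in every list other than RNase H, where it was 0 of 8. The end zone held one at 6 of 8 genes in K562, 7 in DRIPc, 2 in RNase H, and 7 each in RNase A, digest B and digest A. NPM1 was the gene without an end peak in all of them, joined by HSPA8 in K562. Where at least 50% of a peak had to lie in the zone, the start counts were 4 in K562, 1 in DRIPc, 4 in RNase A, 1 in digest B and 3 in digest A, and the end counts 0 in K562, 3 in DRIPc and 1 in each of the other lists. Bases covered in the start zone came to 97.1% in K562, 46.9% in DRIPc, 76.8% in RNase A, 94.8% in digest B and 85.1% in digest A. In the body they came to 53.1% in K562, 66.0% in DRIPc, 55.7% in RNase A, 77.3% in digest B and 57.6% in digest A. NPM1, with the longest body, had 8.2% in K562 and 16.0% in digest A there. In the end zone they came to 68.9% in K562, 81.2% in DRIPc, 76.5% in RNase A, 79.8% in digest B and 81.3% in digest A. DRIPc was thus the list with the least cover at the start zone among these 5.

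At 5 of the 8 genes, DRIPc signal on the strand of the gene set in later than digest A signal, and at 3 it set in earlier. Sense peaks covered the first base of 3 genes (EEF2, HSPA8 and NPM1), while a digest A peak covered it in 7. The share of other genes with a covered first base was not computed. At the other 5 genes (ACTB, ACTG1, EEF1A1, HSP90AB1 and NCL) the sense peak began 352 to 782 bp into the gene, downstream of where digest A signal began. The order was the reverse at HSPA8, where the sense peak began at -2372 bp and the digest A peak at -1340 bp. It was also the reverse at EEF2, with -854 bp for sense DRIPc against -170 bp for digest A, and at NPM1, with -850 bp against -743 bp. This order depends on the list set against DRIPc. At EEF2 the peak over the start began at -1733 bp in K562, -105 bp in RNase A and -410 bp in digest B. At NPM1 it began at -714 bp in K562, -670 bp in RNase A and -2286 bp in digest B. At HSPA8 it began at -1529 bp in K562, -961 bp in RNase A and -1356 bp in digest B. In K562 a peak beginning at -3596 bp met that one with a gap of 1 base, ahead of sense DRIPc (-2372 bp). Against RNase A, whose first HSP90AB1 peak began at 1327 bp, sense DRIPc also set in earlier at HSP90AB1 (766 bp). In the first 500 bp a mean of 3.2 genes was covered by sense DRIPc, against 7.5 by digest A. Between 1 and 2 kb the means were 8.0 genes for sense DRIPc and 7.35 for digest A. In the last kb before the start they were 2.7 and 5.75. Edges of DRIP peaks were not set against the cut sites of the enzymes.

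**Figure D3:**
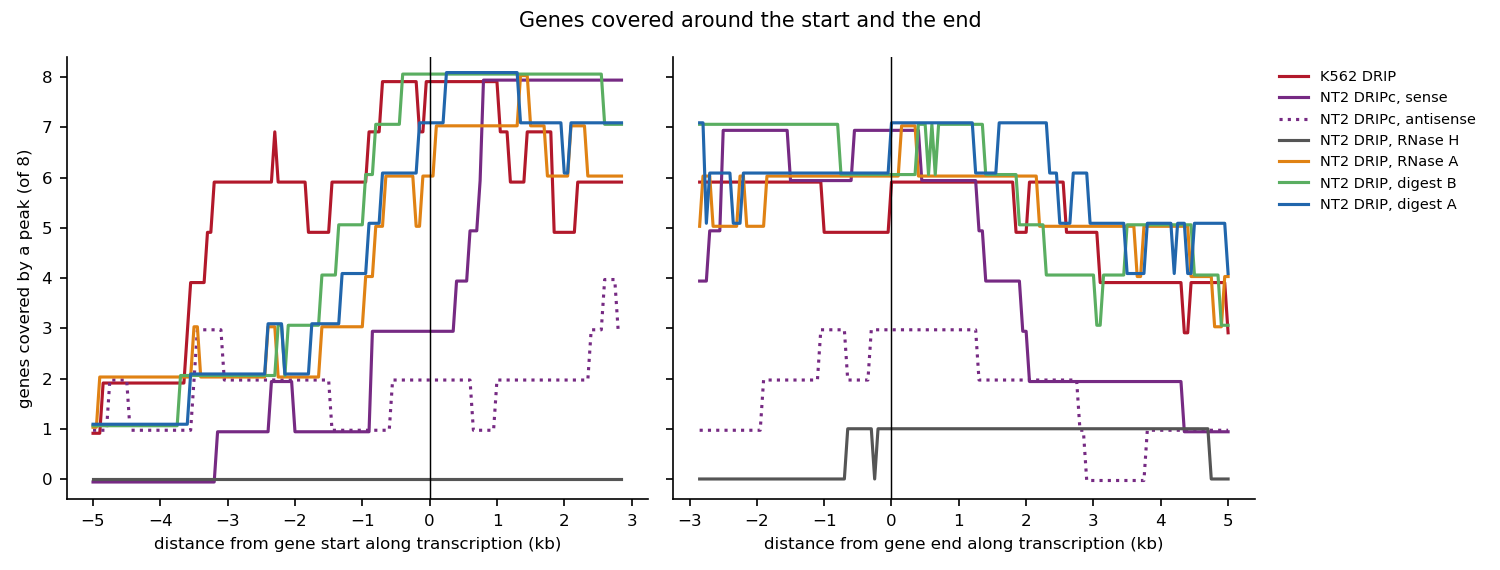
Number of the 8 genes under a peak at each distance in kb from the gene start (left) and the gene end (right), with a line for each list and DRIPc split by strand; lines are set slightly apart so that they can be told from each other. Sense DRIPc rises from 3 genes at the start to 8 genes by 1 kb, while K562 and digest B are at 8 genes at the start itself.

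HSPA8 and NPM1, the starts with the highest GC skew, were also those where DRIPc peaks covered the first base on both strands. EEF2, with a skew of -0.13, had it covered on the sense strand only, and NCL, with a skew of -0.14, on neither. ACTG1, EEF1A1 and HSP90AB1, with skews of 0.15 to 0.16 and so leaning to G, also had it covered on neither strand. Over the 7 promoters, DRIPc cover of the first base thus occurred at both signs of the skew, and so did its absence. In K562 and digest B the first base was covered at all 8 genes. Whether the skew before the start goes with cover of the first base was not tested. This skew was counted only on bases before the RefSeq start on GRCh38.p14. That start was not matched to the hg19 start used for the peaks, so some of these bases may lie inside the gene as used here. Whether the skew of the transcribed DNA goes with hybrid peaks was not tested.

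Every gene carried DRIPc signal on its own strand, and 7 of 8 also carried some on the other. In tiles of 15 kb, DRIPc peaks on both strands occurred in 2.69%, and a plus strand peak in 14.3%. Over the 8 windows sense peaks covered 65464 bp and antisense peaks 30254 bp. Inside the genes the values were 43936 and 13806 bp, in the 5 kb downstream 16330 and 8189 bp, and upstream 5198 and 8259 bp. Upstream was thus the part where antisense cover was the larger, with 5000 of its 8259 bp at HSPA8. Sense cover exceeded antisense cover at each of the 8 genes. Sense peaks ran past the end of 7 genes, by 422 bp (EEF2) to 5634 bp (HSPA8), and stopped short of it at NPM1.

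**Figure D4:**
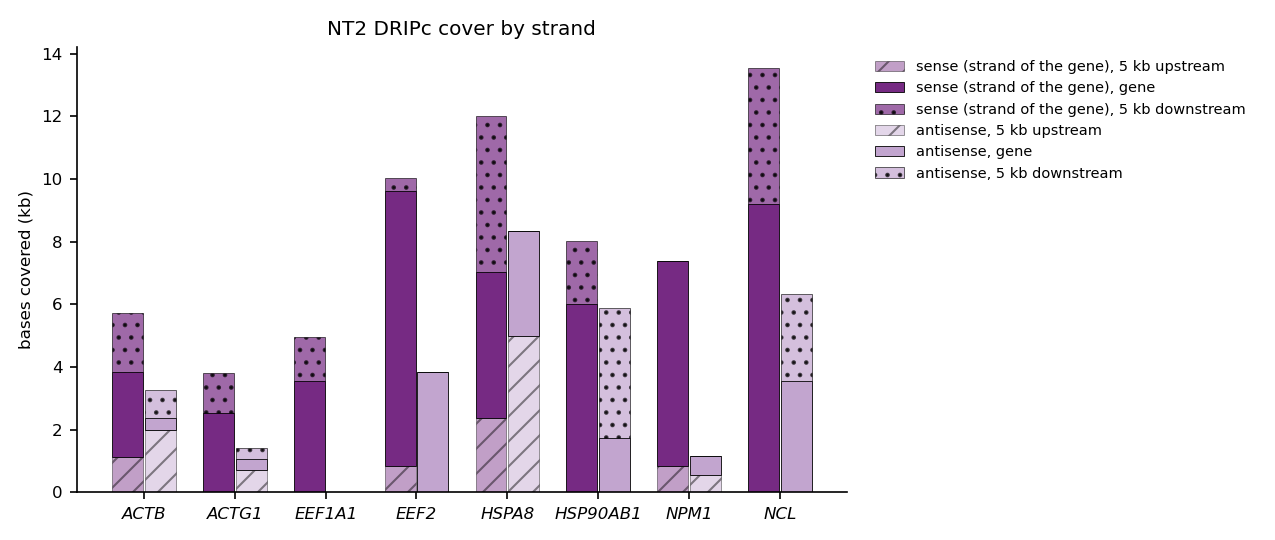
Bases in kb covered by NT2 DRIPc peaks on the strand of each gene (dark) and on the other strand (light), stacked by 5 kb upstream, gene and 5 kb downstream. The dark bar is the taller at all 8 genes, and EEF1A1 has no light bar.

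RNase H left peaks at the ends of EEF2 and HSP90AB1. At EEF2 the RNase H peak of 4903 bp (chr19:3971353-3976255) covered the last 202 bases of the gene and 4701 bp beyond, where DRIPc signal reached 422 bp. At HSP90AB1 it measured 408 bp (chr6:44220960-44221367) and ended at -253 bp from the gene end, inside both a sense and an antisense DRIPc peak. Both touched an RNase A peak, against 64.5% of all RNase H peaks. In the other direction, 2 of 23 RNase A peaks near the genes (8.70%, exact Clopper-Pearson 95% interval 1.07 to 28.0%) touched an RNase H peak, against 8.66% of the whole RNase A list. The share near the genes was thus at the level of the list. Intervals here and below cover counting error only, and peaks of the same gene are not independent.

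Peaks near the genes were found again in other lists at shares above those of the whole lists, although some intervals reach the value of the list. Of K562 peaks, 23 of 27 (85.2%, 66.3 to 95.8%) touched a digest A peak, against 67.3% of the list. Of digest A peaks, 23 of 28 (82.1%, 63.1 to 93.9%) touched a K562 peak, against 54.7%. For RNase A and digest A the shares were 21 of 23 (91.3%, 72.0 to 98.9%) against 65.7%, and 26 of 28 (92.9%, 76.5 to 99.1%) against 65.5%. Between the digests, 20 of 20 digest B peaks (83.2 to 100%) had a counterpart in digest A, against 70.9%, and 28 of 28 digest A peaks (87.7 to 100%) had a counterpart in digest B, against 76.8%. For DRIPc, 25 of 26 peaks (96.2%, 80.4 to 99.9%) touched a digest A peak against 45.6%, and 21 of 28 digest A peaks (75%, 55.1 to 89.3%) touched a DRIPc peak against 61.4%. The intervals for K562 peaks in digest A and for digest A peaks in DRIPc include the value of the list. The longer peaks near the genes are also more readily touched, which was not adjusted for.

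Base by base, K562 and digest A shared 75.6% of the bases in either list over the 8 windows, DRIPc and digest A 59.3%, RNase A and digest A 85.5%, and digest B and digest A 80.2%. The pooled K562 value was below that of RNase A and digest B, but this did not hold gene by gene. K562 shared more with digest A than digest B did at ACTB (98.4% against 93.4%), ACTG1 (91.8% against 86.5%), NPM1 (60.3% against 36.1%) and NCL (91.2% against 91.0%). The lowest K562 values were those of HSPA8 (39.0%), NPM1 and HSP90AB1 (62.2%). By gene the K562 value ran from 39.0% at HSPA8 to 98.4% at ACTB, and the RNase A value from 52.4% at NPM1 to 97.4% at EEF2. Bases under a peak in all of K562, RNase A, digest B and digest A made up 46.5% of the windows, from 9.44% at NPM1 to 82.8% at ACTB, and 66.9% of them lay in a sense DRIPc peak. These common bases included the first base of 6 of the 8 genes and the last base of 5. Shared bases and these counts were not computed outside the 8 windows. Whether they are particular to these genes is therefore unknown.

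**Figure D5:**
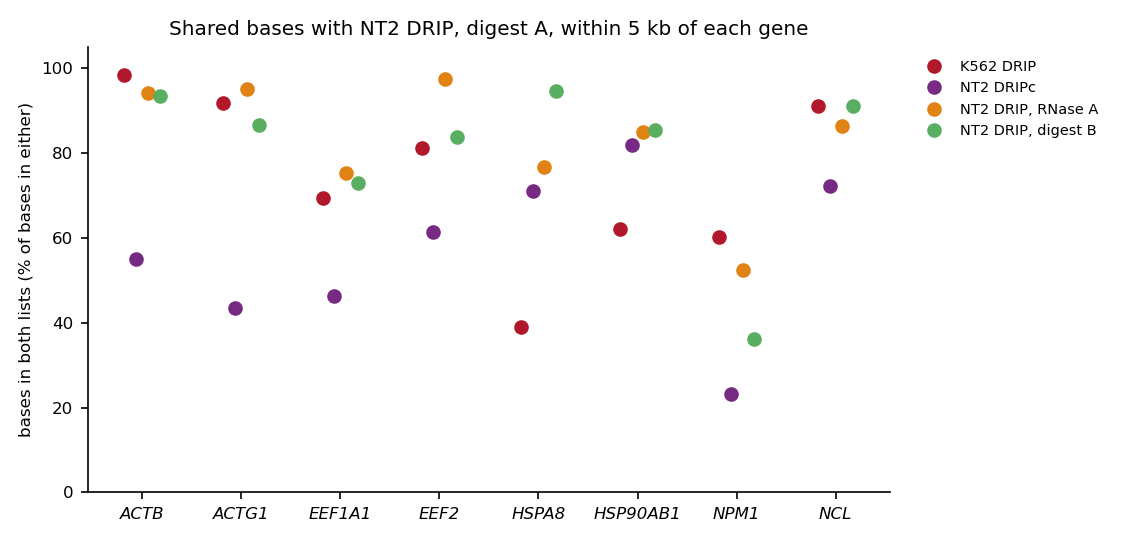
Bases shared with NT2 digest A as a percentage of the bases in either list, for each gene window and for K562, DRIPc, RNase A and digest B. ACTB has 98.4% for K562, 94.1% for RNase A and 93.4% for digest B, while values fall to 39.0% for K562 at HSPA8 and to 36.1% for digest B at NPM1.

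Upstream of the start, K562 peaks covered more bases than digest A peaks at HSP90AB1, HSPA8, EEF2 and EEF1A1. In the flank from 5 to 1 kb upstream, K562 peaks covered 96.9% at HSP90AB1, 64.9% at HSPA8, 57.7% at EEF2 and 22.9% at EEF1A1. Digest A covered 8.5% there at HSPA8 and 0 at the other 3. At ACTB, ACTG1 and NCL K562 and digest A were close, with 66.0% against 64.8%, 91.8% against 89.6% and 33.6% against 35.2%, and NPM1 had no cover in either. The other NT2 lists differed at NCL, with 73.2% in RNase A and 15.3% in digest B, and digest B covered 32.1% at NPM1. RNase A and digest B had 63.0% and 67.7% at ACTB, and 84.0% and 100% at ACTG1. Over all 8 genes the flank was covered to 54.2% in K562 and to 24.8% in digest A, beside 27.5% in RNase A and 28.0% in digest B. ACTB, ACTG1, EEF1A1, HSPA8 and NPM1 are known to have processed pseudogenes elsewhere in the genome. No source used here says how reads that map to several places were treated, and the part of such reads in these values was not tested.

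Neighbouring peaks of a list sometimes met with a gap of 1 base, so a count of peaks is not a count of separate regions. Near the genes this was seen 7 times among 27 K562 peaks (5.06% of the list were followed in this way), 0 times among 2 RNase H peaks (1.36%), 1 time among 23 RNase A peaks (5.51%), 5 times among 20 digest B peaks (9.49%) and 3 times among 28 digest A peaks (5.65%). At HSPA8 the joints lay at -1530 and 685 bp from the start in K562, at 2585 bp in RNase A, at 5294 bp in digest B and at 4581 bp in digest A, so each list was broken at places of its own.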

How the data were processed

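The 6 human peak lists were used as the authors deposited them: intervals on hg19 in base pairs, without heights, scores or p-values, where the NT2 DRIPc list alone carries a strand. Samples were grouped by cell line, assay, digest and RNase treatment from the labels. Per the submitters' processing notes, the tools included Bismark 0.7.7, TopHat2 2.0.5 and BWA 0.6.1, with no role stated, and the human build was hg19. No source used here names the peak caller or its threshold.

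A peak belonged to a gene if it touched the gene or its 5 kb flanks by at least 1 bp. Zones were 1 kb on either side of the first and last base, the body between them and the rest of each flank. Whole-list shares, tiles of 15 kb and 2 kb and the share of bases covered served as background, with each chromosome taken to end at the last peak of any list. The tiles were not limited to genes. Shared counts were checked with bedtools 2.31.1, with the same number in 5 of 5 comparisons, and the overlap functions were tested on 5000 simulated peaks, where a planted share of 60% was recovered as 60%. Intervals are exact Clopper-Pearson 95% intervals (scipy 1.17.1). Scripts ran on pandas 2.3.3 and numpy 2.4.6 under Python 3.11.15, and figures were drawn with matplotlib 3.10.9. All 8 members are named. The mouse lists, the RNA-seq and the MethylC-seq samples were not used here. The members, zones and lists were chosen with earlier results of these data known. Related actin, elongation factor and chaperone genes were not analysed here, since no hg19 annotation was used. RefSeq tables on GRCh38.p14 gave promoter sequences and the names of neighbouring genes, and strands, which matched for the 7 genes with an entry. The minus strand of ACTB is textbook knowledge.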

Additional observations from a re-analysis of the deposited data

How the results depend on the processing

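Of 142 values recomputed under another setting, 113 stayed within 1.5 times the count or inside the interval of the share and 29 moved. This split depends on the width of the intervals. That for cover counts each base as a trial (61.3 to 61.8% in K562), and every recomputed cover value moved. That for the 2 RNase H peaks found in RNase A spans 15.8 to 100%, so it could hardly be left. Merging peaks within 1 kb and taking digest B in place of digest A moved none. Requiring 50% of a peak to lie in the zone, which a peak much longer than the zone cannot meet, left the start count at 4 genes in K562, 1 in DRIPc, 4 in RNase A, 1 in digest B and 3 in digest A, and the end count at 0 in K562, 3 in DRIPc, 1 in RNase H, 1 in RNase A, 1 in digest B and 1 in digest A. With 50% of the peak covered by the other list, 80.0% of digest B peaks were found in digest A and 0 of the RNase A peaks in RNase H. With zones of 0.5 kb, 4 genes had a DRIPc peak at the start and 1 an RNase H peak in the body. With the longest 50% of each list, RNase H peaks remained at 1 gene within 5 kb and at 1 gene end, and cover of the windows was 58.2% in K562, 48.5% in DRIPc, 3.37% in RNase H, 50.9% in RNase A, 59.3% in digest B and 55.1% in digest A. Without flanks, cover was 60% in K562, 67.2% in DRIPc, 0.933% in RNase H, 61.8% in RNase A, 80.1% in digest B and 64.6% in digest A. Settings for the first base of each gene and for the opposite DRIPc strand were chosen after seeing the data. Depth is unknown, so a missing peak may be one below the threshold. No paired analysis was possible because each group compared holds 1 list and the result comes from no test.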
